A study of Mus musculus with 9 samples.

Results

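The genes described here are 10 genes of purine breakdown and salvage, namely Xdh, Aox1, Gda, Pnp, Ada, Nt5e, Hprt, Aprt, Adk, and Slc2a9. They were chosen by name, and each was found once among the 38621 genes measured by RNA-seq. RNA came from the brains of 9 C57BL/6 mice, which the paper states were male, 3 mice per group (sham, ICH, and feb). The sham mice are called untreated in the sample labels, whereas the paper describes an injection of saline. For intracerebral hemorrhage (ICH), 30 μl of autologous blood was injected into the brain. The feb mice had the same blood injection after febuxostat had been given by gavage at 50 mg/kg once daily for 5 days. No group received febuxostat without blood, and the age, the dissected region, and the time of collection are not stated for these samples.

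Purine nucleotides are broken down to nucleosides and then to the bases hypoxanthine and guanine. Xanthine oxidase, encoded by Xdh, converts hypoxanthine to xanthine and xanthine to urate, with reactive oxygen species as by-products, and it is the enzyme that febuxostat inhibits. Salvage enzymes return the bases and adenosine to nucleotides, a route on which brain tissue relies.

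Expression is given as RPKM, the reads on a gene scaled to exon length and to the total reads of the library. Between 23065757 and 29538009 reads per mouse were counted on genes, so that 3 reads per kb of exon equal an RPKM of 0.102 to 0.130. Groups were compared with limma on log2(RPKM + 0.1) over 29025 genes, and all 10 genes passed the filter on low values. All log2 fold changes and standard errors (SE) are on this scale, which understates the change of genes near 0.1. A gene was called by the study's criteria, an unadjusted p under 0.05 and a fold change over 2, here applied to limma. The study applied them to edgeR on read counts, so the calls here need not match its own. Benjamini-Hochberg adjusted p-values over all genes tested are given beside the calls. With 3 mice against 3, the exact two-sided permutation test cannot give a p below 0.1. Markers of brain neurons were high in every mouse, with a summed RPKM between 474 and 565 over 5 genes. The makeup of the samples differed: the summed RPKM of 7 striatal markers ran from 106 to 623 within the sham group, and that of 8 choroid plexus markers was 365 to 1035 in the sham group, 458 to 967 in the ICH group, and 30.6 to 88.4 in the feb group.

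Of the 10 genes, 2 met the study's criteria, each in 1 comparison and without passing adjustment. Of all genes tested, 2.53% met the criteria in ICH against sham, 2.43% in feb against ICH, and 2.2% in feb against sham. Gda, which encodes guanine deaminase, averaged 15.7 ± 3.15 RPKM (SD, n = 3) in the ICH group against 8.21 ± 5.43 (SD, n = 3) in the sham group. Xdh had 2.67 ± 1.44 (SD, n = 3) in the feb group against 1.12 ± 0.291 (SD, n = 3) in the sham group. In feb against ICH 0 of the 10 met the criteria, and 0 had an unadjusted p under 0.05 in limma, beside 11.1% of all genes. The tissue is bulk brain, so fewer cells of a type and less RNA per cell cannot be told apart. The salvage genes Hprt and Adk varied least between the 9 mice.

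**Figure D1:**
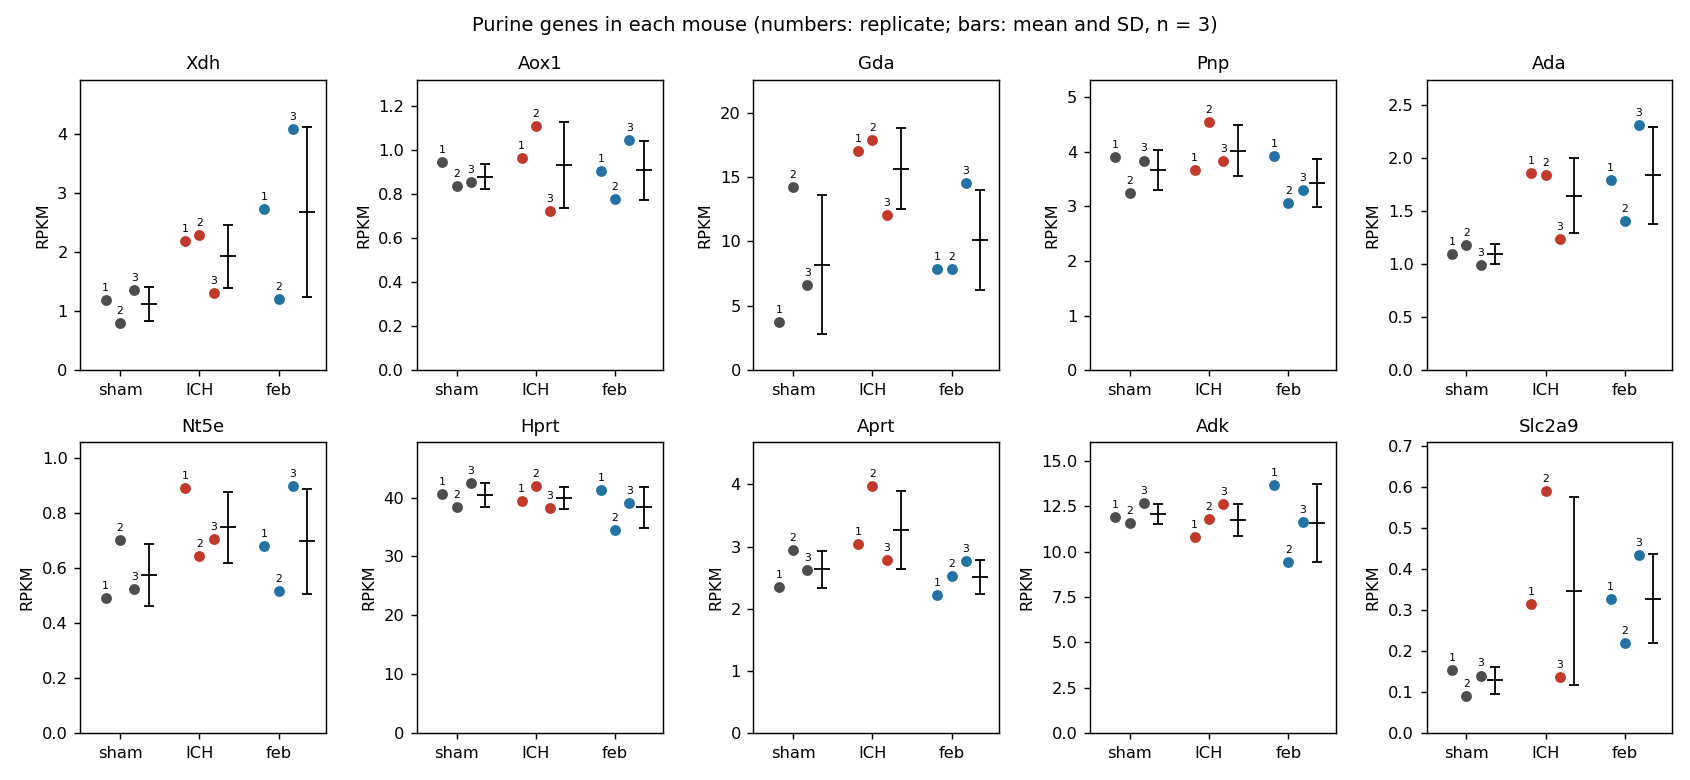
RPKM of each of the 10 genes (linear axes starting at 0) in the 3 sham, 3 ICH, and 3 feb mice, 1 panel per gene, with a point for each mouse and bars for the mean and SD (n = 3). Hprt lies between 34.5 and 42.5 in all 9 mice, whereas Xdh spans 0.792 to 4.07 and its feb points spread the widest.

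The levels ranged over more than 2 orders of magnitude in RPKM, which is scaled to exon length. The mean over the 9 mice was highest for Hprt, at 39.5, above 96.3% of the genes tested. Adk followed with 11.8 and Gda with 11.3. The means were 3.70 for Pnp, 2.80 for Aprt, and 1.90 for Xdh. Ada had 1.53, Aox1 0.905, Nt5e 0.673, and Slc2a9 0.267. Only the ranges of Hprt and Adk did not overlap among the 9 neighbouring pairs in this order. The highest mouse was 1.23 times the lowest for Hprt, 4.79 times for Gda, 5.14 times for Xdh, and 6.54 times for Slc2a9.

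Xdh lies on chromosome 17 (73883908 to 73950182, minus strand, GRCm38, as for all deposited positions) and was supported by 95 to 431 reads per mouse. Its RPKM was 1.20, 0.792, and 1.36 in sham mice 1 to 3. It was 2.18, 2.29, and 1.31 in ICH mice and 2.73, 1.20, and 4.07 in feb mice. ICH 3 and feb 2 lay within the range of the sham mice, and the other 4 mice with blood injection lay above it. Xdh rose by the study's criteria in the feb group against the sham group (log2 fold change 1.06, SE 0.42, 95% interval 0.11 to 2.02, adjusted p = 0.580 in limma). The groups overlapped (exact permutation p = 0.2). Without feb 3 the log2 fold change was 0.69, and without sham 1, sham 2, or feb 1 it was 1.12, 0.86, or 0.97, and the criteria were not met in any of these cases. With a pseudocount of 1 it was 0.72 and with samples scaled to equal medians 0.95, again short of the criteria. The ICH group against the sham group gave 0.73 (SE 0.42, 95% interval -0.22 to 1.68, adjusted p = 0.477) and the feb group against the ICH group 0.33 (SE 0.42, 95% interval -0.62 to 1.29, adjusted p = 0.788). The interval for the feb group against the ICH group allows a fold change of 0.651 to 2.44, and without feb 3 the log2 fold change was -0.0385.

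Vascular endothelium is a known site of Xdh expression. The summed RPKM of 6 endothelial markers was 32.2 to 41.1 in the sham group, 31.7 to 40.0 in the ICH group, and 23.2 to 30.7 in the feb group, so that the feb mice, with the highest mean Xdh, had the lowest endothelial sums. None of the 6 was at 0 in any mouse. In feb against ICH, 3 of the 6 were lower without overlap, beside 10.1% of all genes tested. Pecam1 had a log2 fold change of -0.37 in feb against sham (adjusted p = 0.565 in limma). Feb 3 had both the highest Xdh and the lowest endothelial sum, at 23.2. The part of endothelial content in the Xdh values was not tested.

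Aox1 encodes aldehyde oxidase, a molybdenum enzyme related to xanthine oxidase (chromosome 1, 58029931 to 58106413, plus strand). Its RPKM was 0.943, 0.837, and 0.856 in sham mice, 0.964, 1.11, and 0.721 in ICH mice, and 0.904, 0.775, and 1.04 in feb mice. The 3 groups overlapped throughout. The log2 fold changes were 0.058 for ICH against sham (95% interval -0.39 to 0.51), -0.023 for feb against ICH (-0.47 to 0.42), and 0.035 for feb against sham (-0.41 to 0.48). The first and the last took the opposite sign with samples scaled to equal medians (-0.049 and -0.075) or by size factors (-0.012 and -0.015).

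Gda, the enzyme that turns guanine into xanthine, lies on chromosome 19 (21391307 to 21473445, minus strand) and had 678 to 2891 reads per mouse. Its RPKM was 3.74, 14.2, and 6.63 in sham mice. It was 17.0, 17.9, and 12.1 in ICH mice and 7.88, 7.88, and 14.6 in feb mice. Sham 2 lay above ICH 3, so the groups overlapped. Gda rose by the study's criteria in the ICH group against the sham group (log2 fold change 1.11, SE 0.45, 95% interval 0.094 to 2.13, adjusted p = 0.389 in limma; exact permutation p = 0.2). The ratio of the mean RPKM values was 1.91, so the fold change exceeded 2 on the log2 scale but not by this ratio. Without sham 1, sham 3, ICH 1, or ICH 2 the log2 fold change was 0.66, 1.07, 1.04, or 1.01, and the criteria were not met. The feb group against the ICH group gave -0.67 (SE 0.45, 95% interval -1.69 to 0.35, adjusted p = 0.599). The feb group against the sham group gave 0.44 (SE 0.45, adjusted p = 0.791), and without sham 1 it was -0.0079.

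Gda is a gene with regional expression in the forebrain, and the regional markers varied between mice, in part with Gda and in part not. Sham 1, with the lowest Gda, had the lowest striatal sum of 106, and sham 2, with the highest Gda of the sham mice, had 623. The summed RPKM of 6 cortical markers was 23.7 to 44.6 in the sham group, 60.7 to 117 in the ICH group, and 46.9 to 64.0 in the feb group. Both groups with blood injection lay above the sham group for this sum without overlap. The sum of 5 thalamic markers was 121 to 185 in the sham group, 25.9 to 134 in the ICH group, and 67.6 to 171 in the feb group. ICH 2 had the highest Gda and cortical sum and the lowest thalamic sum of the 9 mice. However, sham 1 had the highest cortical sum of the sham mice, at 44.6. ICH 1, with a Gda of 17.0, had a striatal sum of 263, below the 415 of feb 1, with a Gda of 7.88. No marker of the 3 lists was at 0 in any mouse, and the part of the dissected region in the Gda values was not tested.

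**Figure D2:**
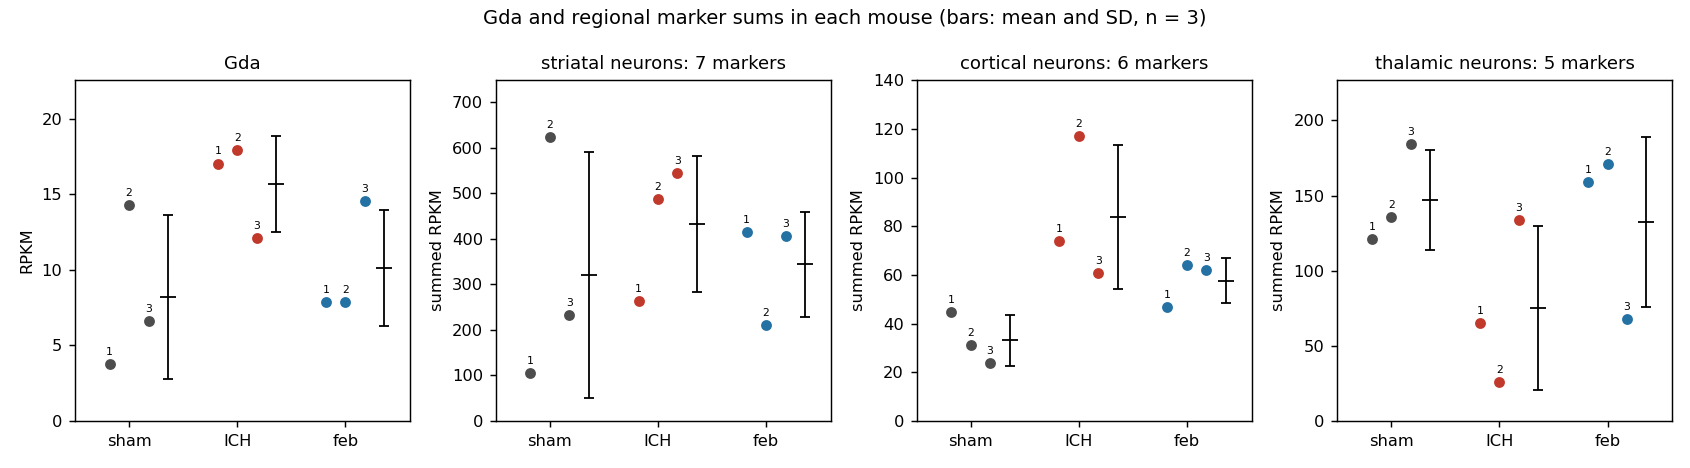
RPKM of Gda and the summed RPKM of 7 striatal, 6 cortical, and 5 thalamic markers (linear axes starting at 0) in each of the 9 mice, numbered within their group, with bars for the mean and SD (n = 3). Sham 1 is lowest in both Gda (3.74) and the striatal sum (106), and the ICH and feb points lie above the sham points for the cortical sum.

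Ada encodes adenosine deaminase, which turns adenosine into inosine (chromosome 2, 163726584 to 163750239, minus strand). It was counted with only 56 to 107 reads per mouse. Its RPKM was 1.10, 1.18, and 0.995 in sham mice, 1.86, 1.84, and 1.24 in ICH mice, and 1.79, 1.40, and 2.32 in feb mice. All 6 mice with blood injection lay above all 3 sham mice. Of all genes tested, 13.2% were higher without overlap in ICH against sham and 7.78% in feb against sham. The log2 fold change was 0.53 in the ICH group against the sham group (SE 0.22, 95% interval 0.028 to 1.03, adjusted p = 0.393). It was 0.68 in the feb group against the sham group (SE 0.22, 95% interval 0.17 to 1.18, adjusted p = 0.565). Both had an unadjusted p under 0.05 but less than a 2-fold change, so Ada was not called. Exact permutation p was 0.1 in both, the smallest possible. In the 19 alternatives the unadjusted p stayed under 0.05 in 10 for the ICH group and in 18 for the feb group. The exception for the feb group was the fit without feb 3 (0.50). Between the feb and ICH groups the log2 fold change was 0.15 (95% interval -0.36 to 0.65).

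Pnp and Nt5e act on either side of Ada. Pnp encodes purine nucleoside phosphorylase, which releases hypoxanthine and guanine (chromosome 14, 50944302 to 50965237, plus strand). Its RPKM was 3.91, 3.24, and 3.84 in sham mice, 3.67, 4.55, and 3.84 in ICH mice, and 3.92, 3.07, and 3.30 in feb mice. The groups overlapped, and the 95% intervals of the log2 fold changes were -0.18 to 0.44 for ICH against sham and -0.54 to 0.089 for feb against ICH. Pnp shares 356 exon bases, 11.5% of its exon, with Gm38316 on the opposite strand. The strand setting of the counting is not stated, so the Pnp values are uncertain. Gm38316 had 99 to 218 reads per mouse and Pnp 235 to 369, and the share of reads on the common bases is not known. Nt5e encodes CD73, the surface enzyme that makes adenosine from AMP (chromosome 9, 88327197 to 88372092, plus strand). Its RPKM was 0.492, 0.703, and 0.525 in sham mice, 0.893, 0.645, and 0.706 in ICH mice, and 0.681, 0.516, and 0.897 in feb mice. The groups overlapped, and the log2 fold changes were 0.33 for ICH against sham (adjusted p = 0.557), -0.10 for feb against ICH, and 0.23 for feb against sham.

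Hprt and Adk varied least. Hprt, which returns hypoxanthine and guanine to nucleotides, is X-linked (52988137 to 53021659, plus strand). Its RPKM was 40.6, 38.4, and 42.5 in sham mice, 39.5, 41.9, and 38.2 in ICH mice, and 41.3, 34.5, and 39.1 in feb mice. The 95% intervals of its log2 fold changes lay within -0.28 and 0.17 over the 3 comparisons. Adk, which phosphorylates adenosine (chromosome 14, 21052574 to 21448568, plus strand), had 11.9, 11.6, and 12.7 in sham mice, 10.8, 11.8, and 12.6 in ICH mice, and 13.7, 9.41, and 11.6 in feb mice. Its log2 fold changes ran from -0.076 to -0.036, within intervals of -0.38 to 0.27. Feb 2 was the lowest of the 9 mice for both Hprt and Adk.

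Aprt, the salvage enzyme for adenine, lies on chromosome 8 (122574635 to 122576909, minus strand) and had 95 to 169 reads per mouse. Its RPKM was 2.35, 2.94, and 2.62 in sham mice, 3.03, 3.98, and 2.79 in ICH mice, and 2.22, 2.53, and 2.77 in feb mice. Every feb mouse lay below every ICH mouse, with feb 3 close to ICH 3, and 10.1% of all genes tested were lower without overlap in this comparison. The log2 fold change was -0.36 (SE 0.16, 95% interval -0.73 to 0.0075, adjusted p = 0.458; exact permutation p = 0.1, the smallest possible), and Aprt was not called. It was 0.29 for ICH against sham (adjusted p = 0.465) and -0.071 for feb against sham.

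Slc2a9 encodes GLUT9, a urate transporter (chromosome 5, 38349273 to 38503143, minus strand). It was the least expressed of the 10 genes, with 12 to 79 reads per mouse. Its RPKM was 0.153, 0.0903, and 0.140 in sham mice, 0.313, 0.591, and 0.135 in ICH mice, and 0.327, 0.218, and 0.435 in feb mice. All feb mice lay above all sham mice, and ICH 3 lay among the sham mice. Of all genes tested, 7.78% were higher without overlap in feb against sham. The log2 fold change was 0.88 in the feb group against the sham group (SE 0.41, 95% interval -0.040 to 1.81, adjusted p = 0.599; exact permutation p = 0.1) and 0.85 in the ICH group against the sham group (SE 0.41, 95% interval -0.078 to 1.77, adjusted p = 0.424). Neither was called. For the ICH group the criteria were met in 1 of 18 alternatives, without ICH 3 (1.24). For the feb group they were met in 2 of 18, without feb 2 (1.08) and with limma voom on recovered reads (1.25). Over the 9 alternatives that left out no mouse, the log2 fold change ran from 0.24 to 1.17 for the ICH group. For the feb group it ran from 0.23 to 1.27. Between the feb and ICH groups the log2 fold change was 0.038 (95% interval -0.89 to 0.96).

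Counted over the 10 genes, 1 was called in the ICH group against the sham group, 0 in the feb group against the ICH group, and 1 in the feb group against the sham group. With an unadjusted p under 0.05 there were 2, 0, and 2, beside 12.3%, 11.1%, and 8.54%. An adjusted p under 0.05 was reached by none of the 10 in limma, and by 0.0241%, 0.00689%, and 0.00345% of all genes. Groups did not overlap for Ada in ICH against sham, for Aprt in feb against ICH, and for Ada and Slc2a9 in feb against sham. In these directions 13.2%, 10.1%, and 7.78% of all genes tested did not overlap. The ICH and feb comparisons with sham share the sham mice. The median log2 fold change of the 10 genes was 0.31, -0.048, and 0.13 in the 3 comparisons, beside 0.080, -0.013, and 0.054 for all genes tested. With samples scaled to equal medians, the median of all genes moved to -0.027 for ICH against sham and -0.057 for feb against sham. This scaling moves the 10 genes by the same amount, as Xdh moved from 0.73 to 0.62 in ICH against sham.

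**Figure D3:**
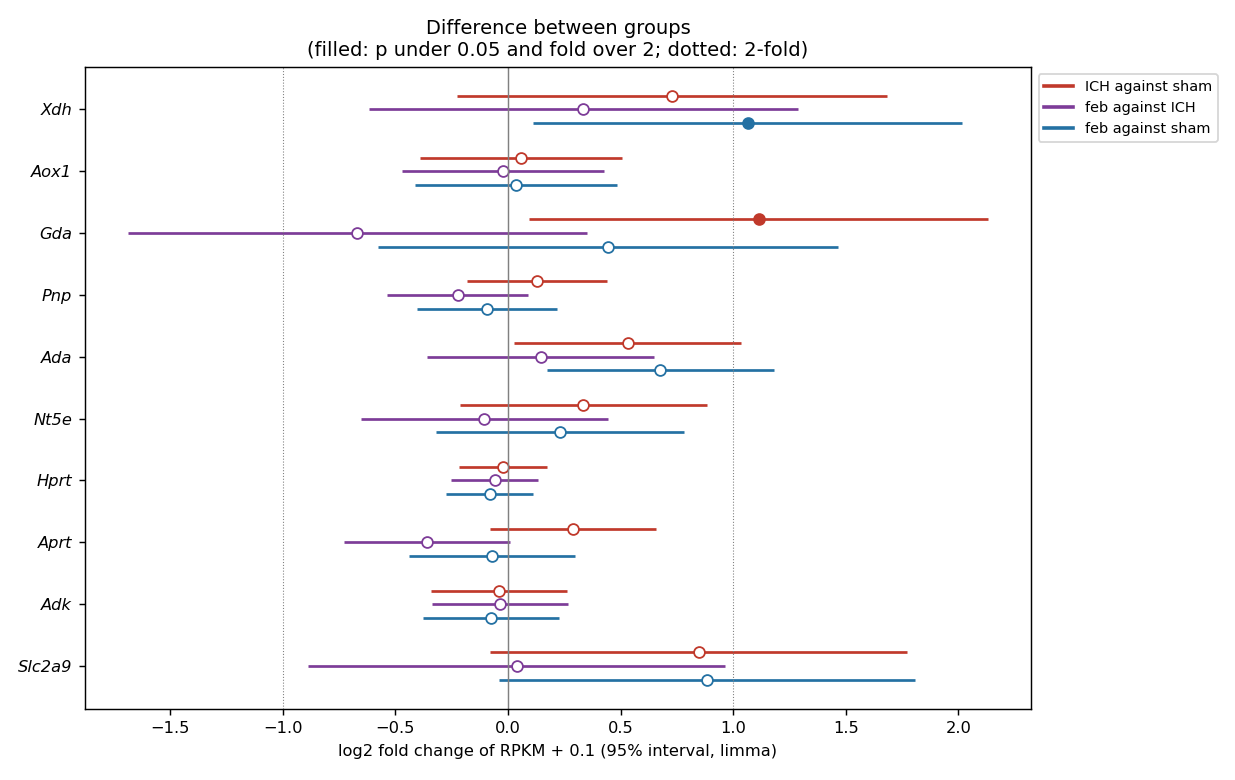
Log2 fold change of RPKM + 0.1 with 95% intervals from limma (horizontal axis) for each of the 10 genes, with 1 line for each comparison and dotted lines at a 2-fold change; filled points met the study's criteria. Only Gda in ICH against sham (1.11) and Xdh in feb against sham (1.06) are filled, and Hprt and Adk have the narrowest intervals.

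Xdh was compared with each of the other 9 genes across the 9 mice on the log2 scale. The permutations ran over all 9 mice without regard to group, so differences shared between groups also enter their p-values. The highest correlations over all 9 mice were with Ada and Slc2a9. For Ada, Pearson's r was 0.88 (exact permutation p = 0.00232, adjusted over the 9 relations p = 0.0171) and Spearman's rho was 0.73 (exact permutation p = 0.0311, adjusted p = 0.140). For Slc2a9, r was 0.86 (exact permutation p = 0.00380, adjusted p = 0.0171) and rho was 0.82 (exact permutation p = 0.0108, adjusted p = 0.0969). Without feb 3 and feb 1, the mice farthest from the median of Xdh, r was 0.77 for Ada and 0.89 for Slc2a9. Within the groups, after subtraction of the group means, the order differed. There r was 0.83 for Hprt and 0.81 for Aox1, above 0.77 for Ada and 0.76 for Slc2a9, and no test was made. For the other 7 genes r over all 9 mice ran from 0.12 for Aprt to 0.66 for Aox1, and no adjusted exact permutation p was below 0.159. No batch is given in the labels, so no value within a batch can be had. Among the 17661 genes with a mean RPKM of at least 1, r with Xdh was below that of Ada in 99.3%, below that of Slc2a9 in 98.9%, and below that of Aox1 in 90.0%.

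**Figure D4:**
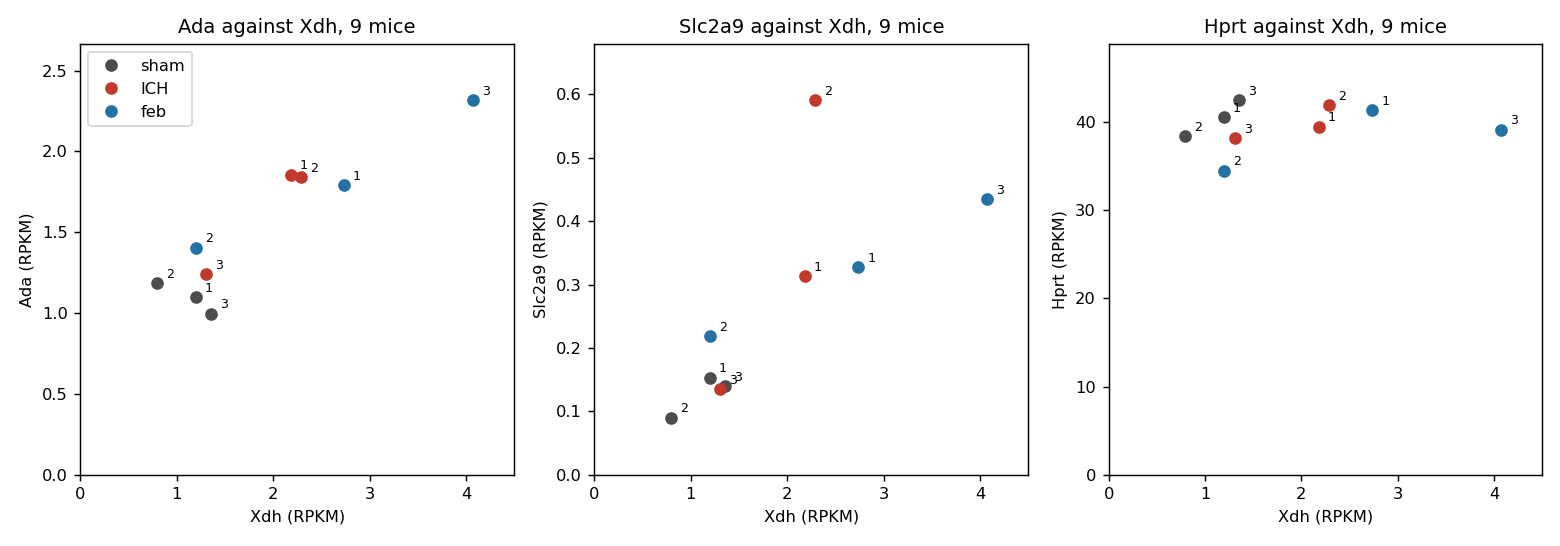
RPKM of Xdh (horizontal axes) against RPKM of Ada, Slc2a9, and Hprt (vertical axes, all linear from 0), with a point for each of the 9 mice, coloured by group and numbered by replicate. Ada (r = 0.88 on the log2 scale) and Slc2a9 (r = 0.86) are higher in the mice with higher Xdh, and Hprt (r = 0.32, but 0.83 within the groups) stays between 34.5 and 42.5.

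The promoters of Ada and Slc2a9, with the highest r with Xdh over all 9 mice, and of Hprt, which varied least between mice, are shown (RefSeq, GRCm38.p6, 250 bases before to 50 after the start site, 5′ to 3′ on the gene's strand). Of the 10 genes, 9 had an entry, with 10 windows in all, and Xdh had none. Capitals mark matches to CCAAT or GGGCGG on either strand. The windows are Ada at chr2:163750190-163750489 (minus strand), Slc2a9 at chr5:38483336-38483635 (minus strand), and Hprt at chrX:52987828-52988127 (plus strand).
Ada: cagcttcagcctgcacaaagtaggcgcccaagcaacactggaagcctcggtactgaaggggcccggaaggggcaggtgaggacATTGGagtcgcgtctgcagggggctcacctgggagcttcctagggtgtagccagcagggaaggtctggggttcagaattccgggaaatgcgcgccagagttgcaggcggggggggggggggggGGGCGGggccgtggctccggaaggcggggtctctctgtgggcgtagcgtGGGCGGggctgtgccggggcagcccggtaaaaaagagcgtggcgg
Slc2a9: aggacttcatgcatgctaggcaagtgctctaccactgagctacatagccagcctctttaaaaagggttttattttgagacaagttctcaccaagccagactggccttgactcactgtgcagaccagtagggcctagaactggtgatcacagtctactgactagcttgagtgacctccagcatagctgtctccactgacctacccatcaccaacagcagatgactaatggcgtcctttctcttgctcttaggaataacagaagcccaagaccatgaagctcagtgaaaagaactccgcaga
Hprt: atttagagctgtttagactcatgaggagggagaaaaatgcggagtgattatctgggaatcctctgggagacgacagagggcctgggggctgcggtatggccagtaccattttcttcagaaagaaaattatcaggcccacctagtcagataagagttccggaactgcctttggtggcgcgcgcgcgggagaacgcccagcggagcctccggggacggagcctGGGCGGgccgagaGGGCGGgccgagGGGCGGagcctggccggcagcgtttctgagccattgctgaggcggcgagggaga
The Ada window has a GC content of 68%, 1 CCAAT match, and 2 GGGCGG matches. The Hprt window has 61% and 3 GGGCGG matches. The Slc2a9 window has 48.3%, against a median of 52.7% over 32851 windows, and holds neither motif. Also searched on both strands were the TATA box (TATAAA), the E-box (CACGTG), and the spaced motif ACANNNTGT, which none of these 3 windows holds. Of all windows, 37.4% hold CCAAT, 35.7% GGGCGG, 13.6% TATAAA, 7.15% CACGTG, and 6.85% ACANNNTGT. The start site of the Slc2a9 entry lies inside the deposited gene span, so it marks 1 of its possible starts. The whole Hprt window lies outside the deposited span of Hprt, ending at 52988127, before the deposited start at 52988137. A match is a description of the letters and not of a bound site.

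The 5 genes closest to Xdh in their pattern over the 9 mice were Net1, F3, Patz1, Rcan1, and Tra2b, among 17661 genes with a mean RPKM of at least 1. They were picked by their correlation, so no test is given. Net1 had r = 0.99 and rho = 0.95, and its mean RPKM was 6.19 in the sham group, 8.94 in the ICH group, and 10.8 in the feb group. F3, which encodes tissue factor, the starter of coagulation, had r = 0.96 and group means of 7.81, 10.7, and 11.3. Rcan1, a calcineurin regulator, and Patz1, a zinc finger factor, had r = 0.96 each, and the splicing factor Tra2b had r = 0.95. Rcan1, Patz1, and Tra2b kept within a narrower span than Xdh, from 8.05 to 9.91, 6.56 to 7.97, and 11.2 to 13.5 over the 9 mice.

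Around these 10 genes, 65 other purine genes were listed in 8 groups by function, of which 64 were measured and 54 passed the filter. Slc17a1 was not analysed here. In the ICH group against the sham group, 3 of the 54 had an unadjusted p under 0.05 in the higher direction and 2 in the lower. In the feb group against the ICH group the counts were 1 and 7, and in the feb group against the sham group 2 and 4. These are 9.26%, 14.8%, and 11.1% of the 54, beside the 12.3%, 11.1%, and 8.54% of all genes tested. None passed adjustment in limma, and 1 was called, in feb against sham, beside 2.2% of all genes tested. Medians of the 54 were 0.085, -0.10, and -0.016.

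The called gene was Slc22a12, which encodes the urate transporter URAT1. It was counted with only 20 to 67 reads per mouse. Its RPKM was 0.436, 0.391, and 0.316 in sham mice, 1.02, 0.575, and 0.628 in ICH mice, and 0.940, 0.599, and 1.29 in feb mice. All mice with blood injection lay above all sham mice. Of the 54 genes, 12 were higher without overlap in ICH against sham and 3 in feb against sham. The shares over all genes tested were 13.2% and 7.78%. Slc22a12 rose by the study's criteria in the feb group against the sham group (log2 fold change 1.07, SE 0.30, adjusted p = 0.565), and its log2 fold change in the ICH group against the sham group was 0.77 (SE 0.30, adjusted p = 0.387). Slc22a8, another organic anion transporter that carries urate, had a mean of 3.23 in the sham group and 1.93 in the feb group (log2 fold change -0.75, adjusted p = 0.583). The sham and feb mice overlapped for Slc22a8 (exact permutation p = 0.2).

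Xdh and Aox1 depend on a molybdenum cofactor that Mocos makes ready for them. Mocos had 0.284 to 0.524 over the 9 mice. Mocs3, a gene of cofactor synthesis, had a mean of 2.30 in the sham group, 2.81 in the ICH group (log2 fold change 0.28, adjusted p = 0.388), and 2.76 in the feb group (log2 fold change 0.26, adjusted p = 0.583). Among the paralogs of Aox1, Aox3 had 0.327, 0.180, and 0.465 in sham mice, 0.941, 0.660, and 0.353 in ICH mice, and 0.252, 0.293, and 0.321 in feb mice. All feb mice lay below all ICH mice for Aox3 (log2 fold change -0.87, SE 0.36, adjusted p = 0.435). In this direction 10.1% of all genes tested did not overlap. Aox4 had 0.137 to 0.296, Aox2 at most 0.0293 and 5 reads, and Uox, the urate oxidase of liver, at most 0.114.

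Ectonucleotidases supply Nt5e with AMP or share its products, and 6 of 7 were tested. Entpd1, or CD39, had a mean of 2.43 in the sham group, 3.03 in the ICH group, and 2.13 in the feb group, with all feb mice below all ICH mice (log2 fold change -0.49, SE 0.15, adjusted p = 0.321). Alpl had 2.17 in the sham group and 1.31 in the feb group (log2 fold change -0.78, adjusted p = 0.565), and Enpp1 had 0.605 and 0.294 (log2 fold change -0.84, adjusted p = 0.580). For both Alpl and Enpp1 the sham and feb mice overlapped (exact permutation p = 0.2 in each). The endothelial and choroid plexus sums were also lowest in the feb group. The summed RPKM of 6 meningeal fibroblast markers was 4.69 to 14.3 in the sham group and 6.09 to 11.9 in the ICH group. It was 3.55 to 7.64 in the feb group, overlapping both. The summed RPKM of 6 microglial markers, none at 0 in any mouse, was 51.8 to 67.6 in the sham group, 61.8 to 114 in the ICH group, and 47.5 to 73.3 in the feb group. For this microglial sum, the ICH mice and the feb mice overlapped. Of the 6 markers, 3 were lower in feb against ICH without overlap, beside 10.1% of all genes tested. Entpd1 was also lower without overlap. The part of these cell types in these values, Slc22a8 included, was not tested.

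The intracellular nucleotidases did not share a direction. Nt5m, the mitochondrial enzyme, had a mean of 4.88 in the sham group, 4.05 in the ICH group, and 4.77 in the feb group, and every ICH mouse lay below every other mouse. Its log2 fold change was -0.27 for ICH against sham (SE 0.080, adjusted p = 0.346) and 0.23 for feb against ICH (SE 0.080, adjusted p = 0.373). Nt5c2 had 25.3, 18.8, and 23.7 in the 3 groups (log2 fold change -0.42 for ICH against sham, adjusted p = 0.366). Nt5c3 had 2.21, 2.80, and 2.64 (0.33 for ICH against sham, adjusted p = 0.390). Nt5c3b and Nt5c1a had log2 fold changes of -0.24 and -0.37 for feb against ICH. In synthesis and interconversion, feb against ICH gave -0.48 for Prps2 (SE 0.14, adjusted p = 0.309), which makes the ribose donor for salvage by Hprt and Aprt, -0.31 for Gmpr2, and -0.29 for Atic.

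**Figure D5:**
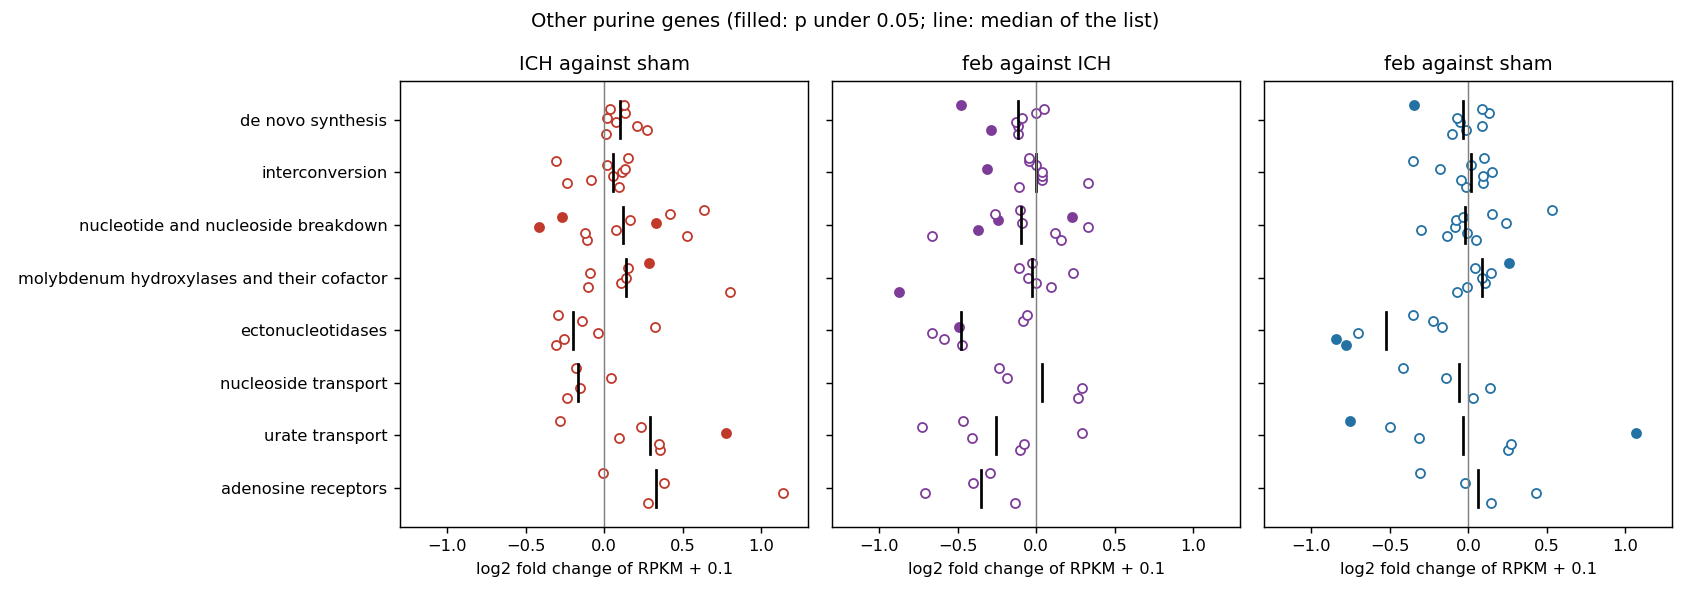
Log2 fold change of RPKM + 0.1 (horizontal axis) of each of the 54 other purine genes tested, in 8 functional lists (rows) and 3 comparisons (panels), with a vertical line at the median of each list and filled points for an unadjusted p under 0.05. Slc22a12 (1.07) is the farthest filled point on the right in feb against sham, and Aox3 (-0.87) is the farthest on the left in feb against ICH.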

How the data were processed

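RNA-seq of brain was compared between 3 sham, 3 ICH, and 3 feb mice. Per the paper, the authors trimmed reads (Trimmomatic 0.36), merged them by UMI, aligned the consensus reads to GRCm38, counted exonic reads with featureCounts (Subread 1.5.1), tested with edgeR 3.12.1, and deposited RPKM values. The annotation release and the strand setting are not given in the sources used here. Within each sample 100% of the low RPKM values were whole multiples of 1 read (tolerance 0.01), which gave the reads per gene, and every replicate pair differed by more than sampling noise (chi-square per gene 12.7 to 43.8). The paper gives 3 mice per group for these data, so replicates are separate mice.

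Here limma 3.58.1 (R 4.3.3, eBayes with trend) was run on log2(RPKM + 0.1) in a single fit. It covered genes that reached an RPKM of 0.1 in 3 or more of the 9 samples. The code was also run on simulated reads, with the same spread setting for all genes and no differences in tissue makeup. That run checks the code only. Python 3.11.15 and scipy 1.17.1 gave permutation tests. Genes named are the 10 genes, Aox2, Aox3, Aox4, Mocos, Uox, other listed purine genes with an unadjusted p under 0.05 in any comparison, and the 5 genes closest to Xdh. The members, lists, and markers were chosen with earlier results of these data known. Positions are those deposited. The alternatives were other pseudocounts, filters, scalings, and fits, a replicate block, voom on recovered reads, and leaving out each mouse.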

Additional observations from a re-analysis of the deposited data

How the results depend on the processing

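The replicate numbers gave no sign of pairing the mice. The deviations of same-numbered mice from their group means had correlations of -0.127 to 0.019 over 9 pairs. Over 18 pairs of other numbers they were -0.12 to 0.17. With 3 mice per group, these correlations cannot exclude a pairing. With a replicate block the genes at an unadjusted p under 0.05 were 1 of the 10 in ICH against sham and 1 in feb against ICH, and 3, 4, and 3 of the other purine genes in the 3 comparisons, in the order ICH against sham, feb against ICH, and feb against sham. In the same order, 2771, 2660, and 1864 of all 29025 genes had that p, against 3570, 3212, and 2478 without the block. No call on the 10 genes changed under the block. Over all alternatives, 519 of 561 log2 fold changes of the 10 genes kept their direction and their side of the criteria, 10 lost and 3 gained a call, and 29 changed sign. An RPKM filter of at least 1 left out Aox1, Nt5e, and Slc2a9. The cause of these shifts was not tested.

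With a pseudocount of 1, 0 genes were called in feb against sham, Xdh having 0.72, and Slc2a9 in feb against ICH was -0.0107. Samples scaled to equal medians gave 0 called and Xdh 0.95 in feb against sham, 1 of the 10 at an unadjusted p under 0.05 in ICH against sham and 1 in feb against ICH, and 3 and 4 other purine genes in those comparisons. Aox1 took the opposite sign with equal medians (-0.049 in ICH against sham and -0.075 in feb against sham), size factors (-0.012 and -0.0151), and voom (-0.0155 and -0.019). Voom called 2 in feb against sham and had 1 at an unadjusted p under 0.05 in ICH against sham. Other purine genes at that p were 3 with size factors and 8 without a trend in ICH against sham, and 3 in a fit of only 2 groups in feb against sham. In feb against ICH, the stricter filter and the fit of 2 groups gave 1 of the 10 at that p. Of all genes, 2440 of 18551 and 3038 of 29025 had that p there. Equal medians gave 2941 of 29025 in feb against ICH and 3214 in ICH against sham. In ICH against sham, voom gave 3723, size factors 3478, and no trend 3181, against 3570 in the fit used above. The fit of 2 groups gave 2227 in feb against sham. Of all genes, 552 were called with equal medians and 765 with voom in feb against sham.

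Leaving out 1 mouse gave 0 to 2 called in ICH against sham and in feb against sham. At an unadjusted p under 0.05 there were 0 to 3 in both, and 0 to 1 in feb against ICH. Of other purine genes there were 2 to 7 in ICH against sham, 5 to 9 in feb against ICH, and 1 to 10 in feb against sham. Over all 29025 genes, the counts at that p were 1882 to 5371, 2147 to 3567, and 1145 to 4081 in the same order. Called over all genes were 619 to 1299 in ICH against sham and 462 to 1150 in feb against sham. Xdh ranged from 0.69 to 1.53 in feb against sham and from -0.0385 (without feb 3) to 0.80 in feb against ICH. In ICH against sham, ranges that crossed 0 were -0.065 to 0.21 for Aox1, -0.059 to 0.0138 for Hprt, and -0.092 to 0.017 for Adk. In feb against ICH they were -0.18 to 0.10 for Aox1, -0.0353 to 0.31 for Ada, -0.28 to 0.068 for Nt5e, -0.12 to 0.0139 for Hprt, -0.16 to 0.10 for Adk, and -0.36 to 0.42 for Slc2a9. In feb against sham they were -0.060 to 0.13 for Aox1, -0.0079 to 0.94 for Gda, -0.15 to 0.0095 for Aprt, and -0.21 to 0.064 for Adk.

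The split of all called genes into higher and lower moved with the scaling, from 423 and 312 to 296 and 443 in ICH against sham and from 461 and 178 to 300 and 252 in feb against sham with equal medians. Size factors gave 346 and 381 in ICH against sham. A pseudocount of 1 left 158 called in ICH against sham, 128 in feb against ICH, and 91 in feb against sham, of 735, 706, and 639. Low read numbers limit Slc2a9 (12 to 79 per mouse), Ada (56 to 107), and Slc22a12 (20 to 67).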
